A study of Rattus norvegicus with 6 samples.

Results

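Riok3, Nabp1, Hopx and Chst1 were among the transcripts with the largest differences between sheared and static smooth muscle cells. They were chosen by that difference, as genes outside the pathways usually discussed for shear stress, and all probe sets annotated with exactly 1 of these symbols were taken. This gave 6 probe sets of 4 genes, among 20826 probe sets with 1 symbol and 14217 genes. Riok3 had 3 probe sets and the other genes had 1 each, and 0 further probe sets listed any of them among several symbols. All 6 lay above the limit that left out dim probe sets. The differences between sheared and static cells given here are the values the genes were selected on, so they are described without a test.

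Expression was measured on Affymetrix rat arrays in 3 cultures under fluid shear stress and 3 static cultures. Sheared cells were confluent rat aortic smooth muscle cells placed in a parallel-plate chamber at 14 dyn per square centimetre for 24 h, with laminar flow driven by the height difference between reservoirs. Static cultures were the same cells without flow. All cultures were of passage 3 to 5, had been grown in 10% fetal calf serum and were then kept for 24 h in 0.1% bovine serum albumin. Cells, medium and label were shared by both groups, so anything else that differs between a flow chamber and a dish goes with the groups. Each sheared culture carried the pairing number of 1 static culture. The labels do not tell what a pair shared or how many animals were used, so the spread between arrays may be technical.

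RIOK3 is an atypical protein kinase of the RIO family, whose members help mature the small ribosomal subunit. In human cells it is found with late small-subunit precursors, and it has also been linked there to the RNA sensor MDA5, encoded by IFIH1, and to the kinase TBK1. NABP1 binds single-stranded DNA and, with INTS3 and INIP, forms the human SOSS complex, which acts at DNA double-strand breaks. HOPX is a small homeodomain protein that does not bind DNA. In mouse heart it binds serum response factor (SRF), the activator of contractile genes, dampens its action and recruits the histone deacetylase HDAC2. CHST1 is a Golgi enzyme that adds sulfate to galactose in keratan sulfate, a glycosaminoglycan carried by lumican, fibromodulin and related matrix proteins.

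Signals are linear and in arbitrary units. Their median over all probe sets was 17.3 to 18.9 on the shear arrays and 21.1 to 22.6 on the static arrays. Smooth muscle markers were present: of 10 fixed markers all were tested, and their summed signal was 4215.0 to 4305.2 in sheared cells and 5835.9 to 6414.5 in static cells; 6 fell and the others did not pass. Endothelial markers were near 0, with a summed signal of 22.4 to 34.7 over 7 genes in sheared cells and 31.6 to 46.3 in static cells. Of 7 leukocyte markers on the arrays, 2 rose and 1 fell, with sums of 138.2 to 184.6 in sheared cells and 189.5 to 249.0 in static cells. Fibroblast markers were abundant in both groups (4276.1 to 7046.6 in sheared and 5273.0 to 7596.2 in static cells, with 1 risen and 4 fallen of 6). Cardiac markers, checked because Hopx is known from heart, summed to 33.6 to 49.3 in sheared cells and 16.3 to 26.5 in static cells, and none had a group mean above 14.4; 1 of the 2 tested, Tnnt2, rose. Erythroid markers summed to 38.2 to 55.2 in sheared cells and 33.0 to 41.7 in static cells. For beta-actin, the 3′ over 5′ signal on the log2 scale, a measure of RNA integrity, was 0.37, 0.42 and 0.39 in sheared cells and 0.29, 0.25 and 0.22 in static cells. It was 0.16, 0.15 and 0.16 in sheared and 0.16, 0.17 and 0.17 in static cells for Gapdh. For hexokinase it was 1.14, 0.56 and 0.74 in sheared and 0.81, 0.87 and 0.70 in static cells, with the highest value on the shear array of pair 1. The part of marker levels and RNA integrity in the results below was not tested, and in bulk RNA fewer cells of a type cannot be told apart from less RNA per cell.

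The stretch before the transcription start is shown, as sequence context only, for the genes that RefSeq's promoter table holds. The table matched 3 of the 4 genes, Riok3, Nabp1 and Hopx. Each sequence is the 250 bases before the annotated start, GRCr8 build, plus strand, 5′ to 3′, and capitals mark every match to 12 searched motifs, on either strand. The Nabp1 and Hopx windows lie inside the annotated span of their genes, which have several starts, whereas the Riok3 window ends just before the gene.
Riok3 chr18:3602285-3602534 (+): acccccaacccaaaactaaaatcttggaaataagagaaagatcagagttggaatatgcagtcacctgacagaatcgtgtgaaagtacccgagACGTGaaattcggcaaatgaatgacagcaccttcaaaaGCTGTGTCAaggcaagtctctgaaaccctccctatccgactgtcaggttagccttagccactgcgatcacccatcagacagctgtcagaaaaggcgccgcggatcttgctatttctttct
Nabp1 chr9:57618691-57618940 (+): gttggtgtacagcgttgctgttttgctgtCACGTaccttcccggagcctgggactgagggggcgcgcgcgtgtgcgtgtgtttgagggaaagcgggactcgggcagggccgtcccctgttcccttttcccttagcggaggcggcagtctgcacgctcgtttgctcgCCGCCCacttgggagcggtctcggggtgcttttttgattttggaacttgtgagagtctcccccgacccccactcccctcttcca
Hopx chr14:31429163-31429412 (+): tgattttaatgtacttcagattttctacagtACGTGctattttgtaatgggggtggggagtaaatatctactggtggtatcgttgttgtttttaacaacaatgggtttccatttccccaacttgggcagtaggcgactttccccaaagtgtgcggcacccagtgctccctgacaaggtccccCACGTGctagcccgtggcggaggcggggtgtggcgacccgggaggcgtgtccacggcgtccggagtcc

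The motif found in all 3 windows was ACGTG, the core of the hypoxia response element. It occurred 1 time in Riok3, 1 time in Nabp1 and 3 times in Hopx, and 16.6% of all 33469 windows of the same length hold it. A pair of the Hopx matches overlap each other on opposite strands within CACGTG, the palindromic E-box, 68 to 63 bases before the start, a motif that 5.59% of windows hold. Riok3 had 1 match to the antioxidant response element, written TGACNNNGC, 120 to 112 bases before its start (10.1% of windows), and Nabp1 had 1 SP1 box, GGGCGG, 84 to 79 bases before its start (30.5% of windows). No window matched AP-1 (TGANTCA, 6.34%), the cyclic AMP element (TGACGTCA, 1.59%), the heat shock element (GAANNTTC, 7.23%), TEAD (GGAATG, 12.1%), the TATA box (TATAAA, 12.9%), CCAAT (34.0%), the CArG box bound by SRF (1.5%) or the NF-kappaB site (6.33%), the last of these by their usual degenerate forms. GC content was 46.8% in the Riok3 window, 62.4% in Nabp1 and 54.0% in Hopx, against a median of 51.2% over all windows.

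All 3 probe sets of Riok3 separated the groups. On probe set 1393236_at, the one with the highest mean, the signal was 3340.6, 3924.0 and 3734.0 in sheared cells of pairs 1 to 3, against 533.4, 632.1 and 647.0 in static cells. On 1394363_at it was 2684.5, 2753.3 and 2691.1 in sheared cells, against 110.4, 136.2 and 137.1 in static cells. On 1395699_at it was 2444.3, 2404.1 and 2426.1 in sheared cells, against 154.4, 165.4 and 199.3 in static cells. Every sheared array was above every static array on each of the 3, as in 27.1% of all tested probe sets. The lowest sheared value was 5.16, 19.6 and 12.1 times the highest static value. Means were 3666 ± 298 in sheared and 604 ± 61.7 in static cells on 1393236_at, 2710 ± 38.0 and 128 ± 15.2 on 1394363_at, and 2425 ± 20.1 and 173 ± 23.4 on 1395699_at (SD, n = 3 each).

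The ratio of means therefore depended on the probe set: 6.07 on 1393236_at, 21.2 on 1394363_at and 14.0 on 1395699_at. On the log2(signal + 16) scale, which adds 16 so that values near 0 do not dominate, the differences were 2.57, 4.25 and 3.70, and their mean was 3.51. These spreads between probe sets of 1 gene were far wider than those between pairs, whose SDs were 0.06, 0.15 and 0.18. Within pairs 1 to 3 the differences were 2.61, 2.60 and 2.50 on 1393236_at, 4.42, 4.19 and 4.14 on 1394363_at, and 3.85, 3.74 and 3.50 on 1395699_at. Pair 3 gave the smallest difference on all 3 probe sets, though by no more than 0.35 from the largest. What makes the probe sets differ was not tested.

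Nabp1 had even values in both groups. Its signal was 891.8, 851.8 and 840.8 in sheared cells of pairs 1 to 3, against 30.4, 30.8 and 29.9 in static cells. The groups did not overlap, and sheared arrays were likewise all higher in 27.1% of tested probe sets. Means were 862 ± 26.8 in sheared and 30.4 ± 0.451 in static cells (SD, n = 3 each), a ratio of 28.4. The coefficient of variation was 3.12% among sheared and 1.49% among static arrays, below the medians over all tested probe sets of 15.5% and 11.8%. The log2 difference was 4.24, with 4.29, 4.21 and 4.22 within pairs 1 to 3.

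Hopx was the least even under shear. Its signal was 382.8, 883.1 and 829.2 in sheared cells of pairs 1 to 3, against 24.8, 23.9 and 21.4 in static cells. The sheared culture of pair 1 was well below the others, while the static cultures were alike. Means were 698 ± 275 in sheared and 23.4 ± 1.76 in static cells (SD, n = 3 each), a ratio of 29.9. The ratio within pairs was 15.4, 37.0 and 38.8, and the coefficient of variation was 39.3% among sheared arrays and 7.54% among static arrays. The log2 difference was 4.09, with 3.29, 4.49 and 4.50 within pairs 1 to 3, and 4.50 without pair 1.

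Chst1 had a signal of 578.3, 472.5 and 445.4 in sheared cells of pairs 1 to 3, against 24.5, 14.2 and 22.2 in static cells. Here the sheared culture of pair 1 was the highest, opposite to Hopx. Means were 499 ± 70.2 in sheared and 20.3 ± 5.41 in static cells (SD, n = 3 each), a ratio of 24.6. The log2 difference was 3.83, with 3.88, 4.02 and 3.59 within pairs 1 to 3. The ratio within pair 2 was 33.3, since its static signal was the lowest of the 3.

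**Figure D1:**
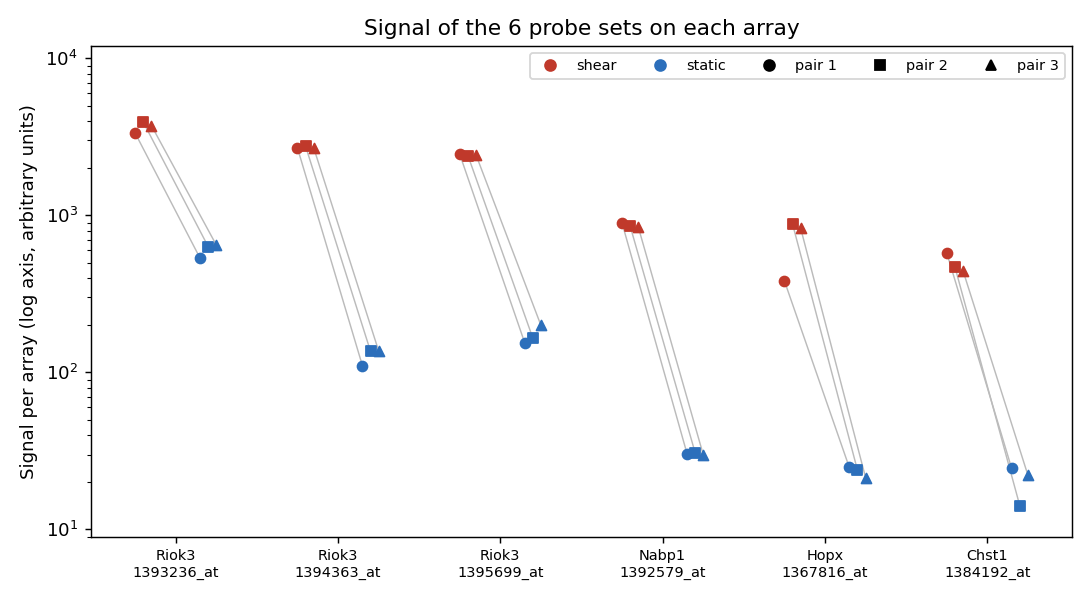
Signal on each array (vertical log axis, arbitrary units) of the 6 probe sets, with shear arrays in red left of static arrays in blue, 1 marker shape per pair and a grey line joining a pair. The groups do not overlap on any of the 6, and all sheared arrays lie higher in 27.1% of all tested probe sets. The sheared Hopx value of pair 1 (382.8) lies below those of pairs 2 and 3 (883.1 and 829.2).

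Static signals of Nabp1, Hopx and Chst1, 14.2 to 30.8, were close to the array median. Detection calls were not used, so whether these signals exceeded background was not tested. The size of the ratios of these genes is therefore uncertain. Their log2 differences were 3.29, 3.05 and 2.73 when 64 was added to the signal and 4.78, 4.75 and 4.58 when 1 was added. Riok3 on 1393236_at, with a static signal of 533.4 to 647.0, had 2.48 and 2.60 under these choices.

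By the highest-mean probe set of each of 11248 genes tested, Nabp1 was at place 10 in the order of log2 difference, Hopx at 11, Chst1 at 13 and Riok3 at 51. These places moved with the pseudocount: with 64 added Nabp1 was at 10, Hopx at 14, Chst1 at 21 and Riok3 at 31, and with 1 added they were at 12, 13, 17 and 98. Nabp1 (4.24) lay between the urokinase receptor Plaur (4.27) and Hopx (4.09). The urokinase gene Plau (3.86) stood between Hopx and Chst1 (3.83), and heme oxygenase Hmox1 (3.75) came after Chst1. Riok3 on 1393236_at (2.57) lay between the sphingosine kinase Sphk1 (2.58) and the hexokinase Hk2 (2.56). These neighbours differed from the 4 genes by less than the SD over pairs of 0.70 for Hopx, 0.21 for Chst1 and 0.06 for Riok3 on 1393236_at, except that Nabp1, with an SD of 0.04, exceeded Hopx by more than its own SD but not by that of Hopx. By probe set, 1394363_at of Riok3 was at place 14 of 21729, next to Nabp1 at place 15. Over all tested probe sets 24.3% rose, 28.5% fell and 52.8% changed at a limma adjusted p under 0.05, and all sheared arrays lay above all static arrays in 27.1%.

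Scaling moved the 4 genes little: log2 differences were 2.45 to 4.29 after quantile normalization and 2.72 to 4.39 after median centring, against 2.57 to 4.24 as deposited.

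The pairs did not rank alike among the 4 genes. The smallest difference was in pair 1 for Hopx, in pair 2 for Nabp1 and in pair 3 for Chst1 and for every Riok3 probe set. The range over pairs was 1.21 for Hopx, 0.42 for Chst1, 0.11 to 0.35 for Riok3 and 0.08 for Nabp1. The order of pairs therefore means little for Nabp1 and for Riok3 on 1393236_at. Among the 88 probe sets that rose by at least as much as Riok3 on 1393236_at, the smallest difference was in pair 1 in 62 (70.5%), with a median difference of 2.86 in pair 1, 3.29 in pair 2 and 3.29 in pair 3. Among all 5283 risen probe sets it was in pair 1 in 52.9%. Hopx thus went with the larger share of strongly risen probe sets in this respect. Chst1 and the other Riok3 probe sets went with the smaller. Nabp1 and Riok3 on 1393236_at varied too little between pairs to be placed.

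**Figure D2:**
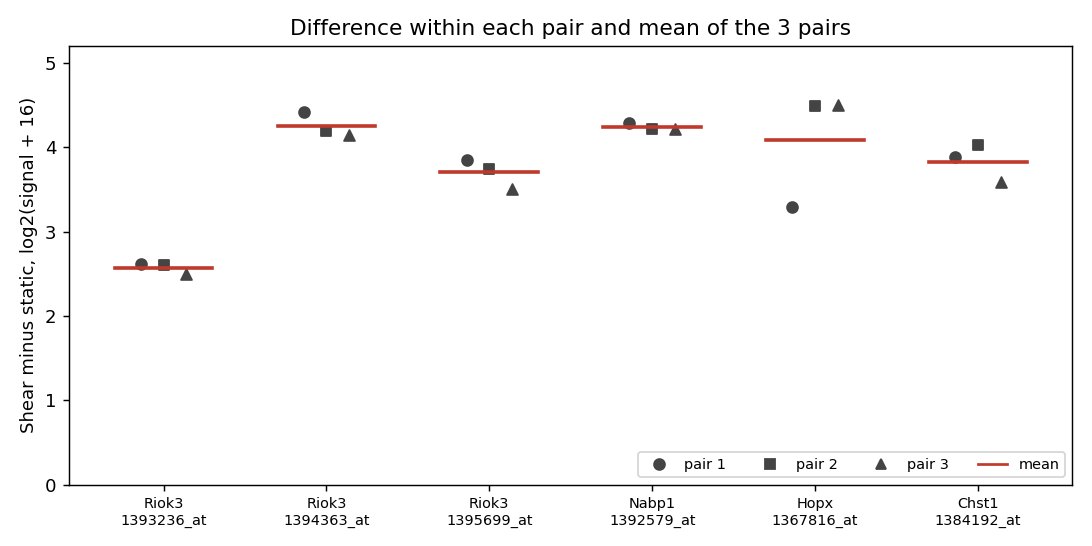
Shear minus static difference in log2(signal + 16) within each pair (markers) and its mean over 3 pairs (red line) for the 6 probe sets. The Hopx difference of pair 1 (3.29) lies apart from those of pairs 2 and 3 (4.49 and 4.50), whereas the 3 pairs of Nabp1 lie between 4.21 and 4.29, and the Riok3 probe sets differ in their means (2.57, 4.25 and 3.70).

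Likeness of pattern was measured as the root mean square difference of log2(signal + 16) values over the 6 arrays, each gene centred on its own mean. A small value needs a change of like size as well as like shape. Shape alone says little here, since the arrays share their groups and pairs: 14.7% to 15.9% of 11247 genes had a Pearson r above 0.95 with each of the 4. Riok3 on 1393236_at was most like Sphk1, which makes sphingosine phosphate (0.0651), the lipid droplet protein gene Plin2 (0.0811) and Arhgdig (0.0925). Nabp1 was most like Riok3 itself, on 1394363_at (0.0973), then the transporter gene Slc16a6 (0.184) and sulfiredoxin Srxn1 (0.202). Hopx was most like Plaur (0.177), Plau (0.222) and Srxn1 (0.289). The sheared culture of pair 1 was also the lowest of 3 for Plaur (1723.7, against 2896.9 and 2620.2 in pairs 2 and 3) and for Plau (186.9, against 418.0 and 570.8). Choosing genes by likeness over these same arrays favours such a shared low value. Among sheared cultures, pair 1 was lowest too for Srxn1 (2340.7, against 3014.6 and 2830.4), Sphk1, Plin2 and Arhgdig, by smaller factors. These genes were also chosen by likeness to the 4, so they do not show how general the low value was.

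Chst1 was most like Riok3 on 1395699_at (0.201), then Srxn1 (0.235) and Nabp1 (0.261). Because the 4 genes were picked for large rises and this measure depends on size of change, that choice favours closeness between them. Between the 4 genes, by highest-mean probe set, the difference was smallest for Nabp1 and Chst1 (0.261) and largest for Riok3 and Nabp1 (0.845), where the sizes of change differ although r was 0.996. The lowest r among these pairs was 0.969, for Hopx and Chst1.

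**Figure D3:**
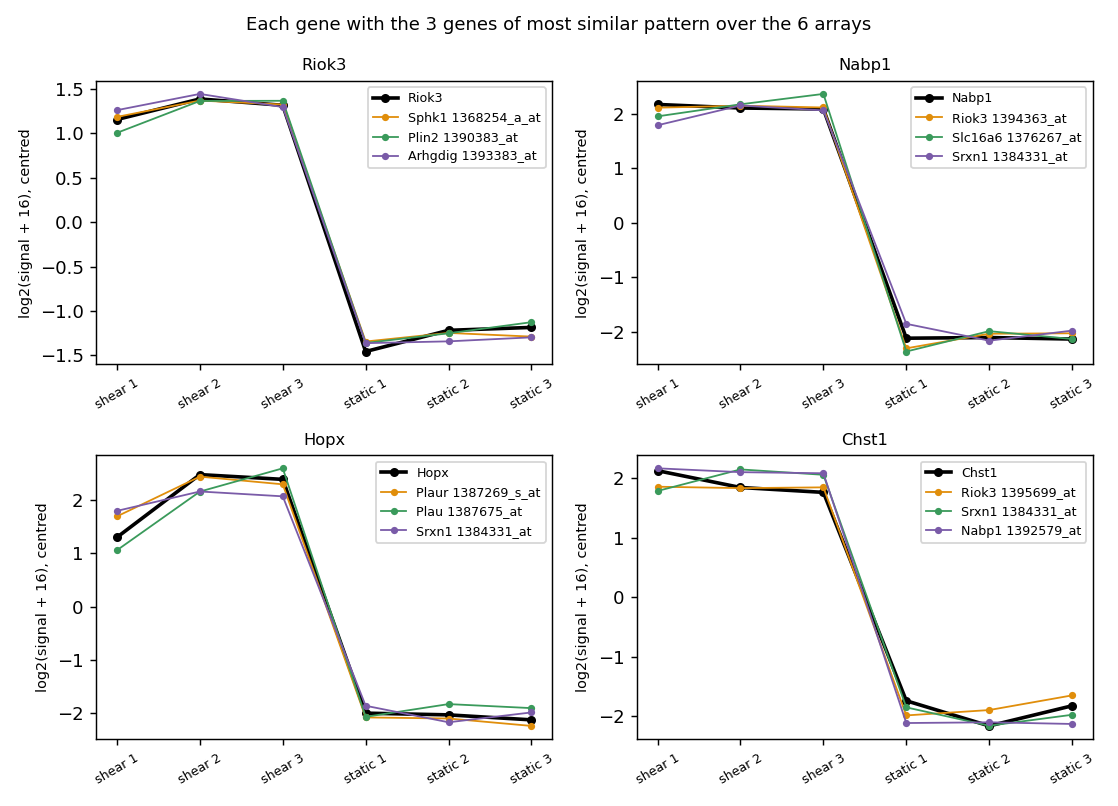
Centred log2(signal + 16) on the 3 shear and then the 3 static arrays for each gene (black) and the 3 genes with the smallest root mean square difference to it (coloured). The lines of Riok3 and Sphk1 nearly coincide (0.0651). Hopx, Plaur and Plau share a low sheared value in pair 1, which choosing genes by likeness over these arrays favours.

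Genes that work with the 4 were taken from lists of paralogs, complexes and pathways, and were tested within the fit over all probe sets. Of 150 such genes 133 had a probe set and 126 were tested: 30 rose, 50 fell and 46 did not pass. Over all 11248 genes tested, 27.9% rose, 30.2% fell and 58.1% changed in either direction, with a median log2 difference of -0.054. The lists of RNA sensing, SOSS and Integrator, SRF regulators, keratan sulfate synthesis and core proteins had 8 to 14 tested genes each and differed from these shares by few genes, so their counts only account for the genes. After median centring 39 partner genes rose and 40 fell. Over all probe sets 6814 rose and 4720 fell under that scaling, against 5283 and 6188 as deposited.

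Genes of small ribosomal subunit maturation, the RIO kinases' own process, were mostly higher under shear. Of 13 tested, 10 rose, 0 fell and 3 did not pass, against 27.9% risen and 30.2% fallen over all genes. The list's median log2 difference was 0.95, against -0.054 over all genes. Both other RIO kinases rose: Riok1 to 337 ± 51.0 in sheared cells, against 149 ± 15.2 in static cells (1.10, limma adjusted p = 0.00012), and Riok2 to 309 ± 80.3 against 107 ± 22.7 (1.38, adjusted p = 0.00065; SD, n = 3 each). Rrp12, a nuclear export factor of pre-ribosomes, rose on all 3 of its probe sets (1.27 on the brightest). Tsr1 (1.01), Noc4l (1.08), Nop14 (0.95), the pre-ribosome factor Ltv1 (0.93) and Pno1 (0.88) also rose, as did Bysl (0.44), though Bysl did not pass without pair 2 or pair 3. Nob1, the nuclease that trims the RNA of the small subunit (0.27, adjusted p = 0.053), the methyltransferases Dimt1 (-0.17) and Emg1 (0.10) did not pass. Nob1 passed under 8 of 13 other settings, among them median centring (0.42). Csnk1d, a kinase of the same step, rose on 2 of 5 probe sets (0.96 and 0.84), fell on 2 (-0.35 and -0.79) and did not pass on 1 (-0.03), and their mean did not pass (0.13).

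In the RNA sensing and NF-kappaB list, which holds the other partners named for RIOK3 in human cells, 4 genes rose, 5 fell and 4 did not pass of 13 tested. The kinase Tbk1 rose to 581 in sheared cells, against 209 in static cells (1.40, adjusted p = 7.7e-05), as did the ligase Traf6 (1.60), the NF-kappaB subunit Rela (1.01) and the adaptor Mavs (0.75). The second Mavs probe set did not pass (-0.13), nor did the mean of both (0.31). The sensor gene Ifih1 had a low signal, 4.83 in sheared and 14.0 in static cells, and fell (-0.53, adjusted p = 0.024), a call lost after median centring and without pair 2. Irf3 (-0.44), Irf7 (-0.77), Nfkb1 (-0.57) and the feedback inhibitor Tnfaip3 (-0.96) fell. The fallen count was 3 after median centring, 2 without pair 2 and 3 without pair 3; Irf3 was lost in each of these, and Nfkb1 without pair 2 or pair 3.

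The other subunits of the SOSS complex differed in direction. Inip, its small subunit, rose to 364 in sheared cells, against 121 in static cells (1.48, adjusted p = 1.6e-05). Ints3, the scaffold, did not pass (54.0 in sheared and 60.9 in static cells; -0.16, adjusted p = 0.34). Nabp2, the paralog that can stand in for Nabp1 in the complex, fell slightly, with 168 in sheared and 218 in static cells (-0.35, adjusted p = 0.026). That call was lost after median centring (-0.20) and without pair 2 or pair 3. Of 14 tested genes of SOSS and the Integrator complex, which processes small nuclear RNA, 4 rose, 3 fell and 7 did not pass, with a median of -0.04. Ints14 (1.45), Ints2 (0.66) and Ints9 (0.44, not without pair 2) rose beside Inip, and Ints7 (-0.57) and Ints11 (-0.34) fell beside Nabp2. The fallen count was 1 after median centring, without pair 2 and without pair 3, and 5 without pair 1.

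Genes that handle single-stranded DNA and repair double-strand breaks were mostly lower under shear, opposite to Nabp1. Of 18 tested, 13 fell, 1 rose and 4 did not pass, against 30.2% fallen and 27.9% risen over all genes. The list median was -0.66, against -0.054 over all genes. All 3 subunits of replication protein A, the main single-strand binder of replication, fell: Rpa1 to 163 in sheared cells, against 436 in static cells (-1.36, adjusted p = 2.7e-05), Rpa2 (-1.03) and Rpa3 (-0.94). The nuclease Exo1 (-1.95), the histone H2ax (-1.65) and the checkpoint kinase Chek1 (-1.57) fell further. The gene that rose was Nbn, a sensor of broken ends (0.95, adjusted p = 0.00013), while its partners Rad50 (-0.77) and Mre11 (-0.33) fell, Mre11 with a call lost under 9 of 13 other settings.

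SRF, its coactivators and other regulators listed around Hopx included 12 tested genes, of which 3 rose, 3 fell and 6 did not pass, against 27.9% risen and 30.2% fallen over all genes. Srf did not pass, with 316 in sheared and 276 in static cells (0.19, adjusted p = 0.20), nor did its coactivators Myocd (-0.17) and Mrtfa (0.29). Hdac2 fell slightly, with 649 in sheared and 889 in static cells (-0.45, adjusted p = 0.0033), and Gata6 (-1.64) and Tead1 (-1.48) fell more. Smad1 (0.66), Epc1 (0.61), which binds Hopx in mouse, and Smad4 (0.47) rose. After median centring and without pair 1 the risen count was 5, with Srf (0.34 and 0.31) and Mrtfa (0.44 and 0.41) added, and Mrtfa also passed without the pairing (adjusted p = 0.036).

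Listed targets of SRF fell in 13 of 19 cases, with 2 risen, against 30.2% fallen and 27.9% risen over all genes. The median of these targets was -0.80, against -0.054 over all genes. Most are contractile or cytoskeletal genes, but Fos and Egr1 encode transcription factors. Fos (-3.76), Filip1l (-3.50) and myosin light chain kinase Mylk (-2.82) had the largest falls, although the dimmer Fos probe set showed no such fall (-0.06). Tpm1, counted as fallen by its brightest probe set (-1.03), differed in direction between probe sets. Others of its probe sets fell (-1.22 and -2.23), rose (0.99 and 1.22) or did not pass (-0.54). The genes that rose did so by little, Actg1 by 0.15 and Egr1 by 0.23, and neither passed without the pairing (adjusted p = 0.18 and 0.40), after quantile normalization or without pair 2 or pair 3. Pdlim7 fell (-0.27) on the brighter of its probe sets, though not after median centring or without pair 2 or pair 3, and the other rose (0.61).

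None of the other sulfotransferases tested rose in limma. Among the closest relatives of Chst1, Chst2 (72.7 in sheared and 80.7 in static cells; -0.12, adjusted p = 0.45) and Chst5 (14.1 in sheared and 16 in static cells; -0.08, adjusted p = 0.69) did not pass, and Chst3 and Chst4 lay below the limit for dim probe sets. Of 13 other glycan and tyrosine sulfotransferases tested, 0 rose and 6 fell in limma, against 27.9% risen and 30.2% fallen over all genes. At an unadjusted limma p under 0.05, 1 was higher and 6 were lower. The tyrosylprotein sulfotransferase Tpst1 fell most, to 45.6 in sheared cells against 247 in static cells (-2.10, adjusted p = 1.3e-05), followed by the heparan sulfate enzymes Hs6st2 (-1.28) and Hs2st1 (-0.99) and the chondroitin and dermatan enzymes Chst14 (-0.70) and Chst12 (-0.69). The one higher at that level, Chst10, did not pass after adjustment (0.44, adjusted p = 0.079), but rose after quantile normalization (0.57), after median centring (0.59) and without pair 1 (0.73), and the risen count was 2 under both scalings, where Ndst2 passed too, and 1 without pair 1.

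Of 14 tested genes that supply sulfate or build keratan sulfate chains, 3 rose, 5 fell and 6 did not pass, against the same shares over all genes. Papss1, which makes the activated sulfate that Chst1 uses, fell to 160 in sheared cells, against 556 in static cells (-1.70, adjusted p = 7.0e-06), and Papss2 did not pass (-0.21). Slc35b2, which carries that donor into the Golgi, fell (-0.52, not without pair 2) and the related Slc35b3 rose (0.34, adjusted p = 0.047). B3gnt2, which extends the chain, rose (0.86), the galactosyltransferase B4galt1 fell on its brighter probe set (-0.50) but not as a mean over both (-0.15), and the sialyltransferase St3gal2 fell (-2.69). Bpnt2, a phosphatase that clears the by-product of sulfation, rose (0.34). The sulfate transporter Slc26a1 had a low signal, 9.3 in sheared and 23.7 in static cells. It fell (-0.61), which did not pass after either scaling or with pair 3 left out. Slc35b3 and Bpnt2 did not pass without pair 2 or pair 3, which left 1 risen gene, and Slc35b3 did not pass without pair 1 either.

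Of 8 core proteins and relatives tested, 3 rose, 2 fell and 3 did not pass. Lumican Lum, a bright transcript, did not pass (2889 ± 844 in sheared and 2494 ± 335 in static cells, SD, n = 3 each; 0.17, adjusted p = 0.20), but passed without pair 1 (0.34). Fibromodulin Fmod (0.31), Ogn (0.38) and decorin Dcn (0.39) rose in the paired fit, but none of them passed without the pairing (adjusted p = 0.51, 0.27 and 0.20), nor Fmod without pair 3. Aggrecan Acan (-0.93) and Prelp (-0.86) fell, Acan at a low signal, 15.0 in sheared and 41.6 in static cells.

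**Figure D4:**
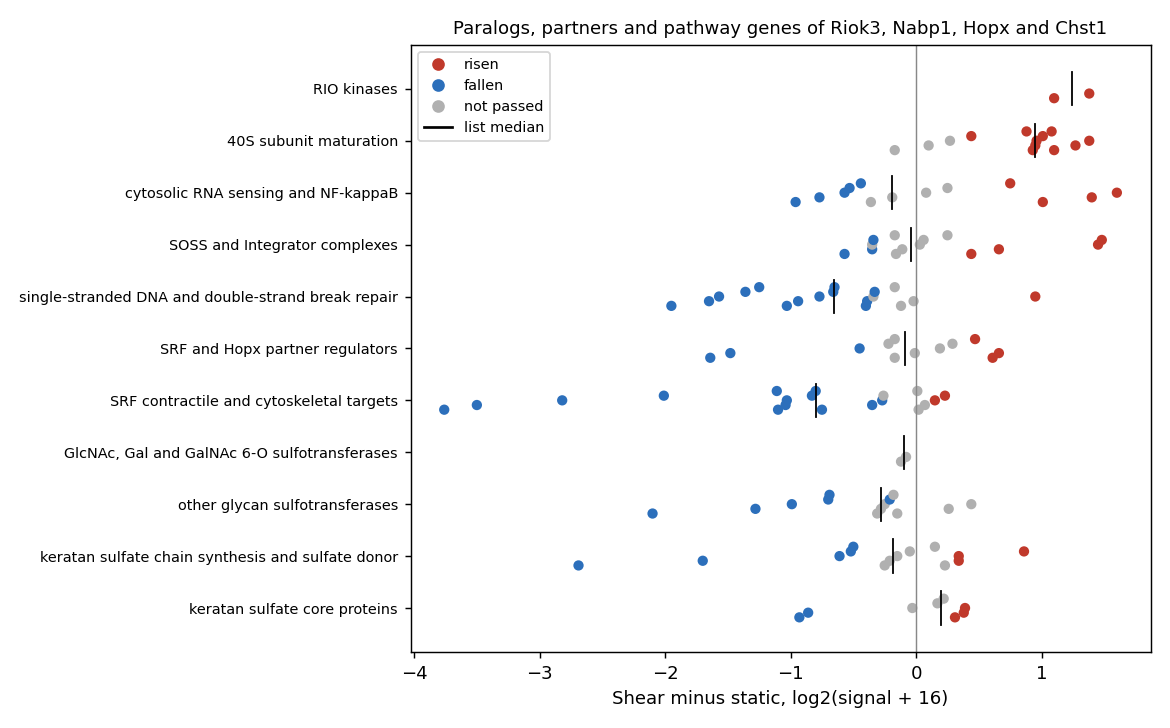
Shear minus static difference in log2(signal + 16) of each tested gene (points, by highest-mean probe set) in the 11 lists, in red where it rose, blue where it fell and grey where it did not pass, with the list median as a black line. The small-subunit maturation list lies to the right (median 0.95), and the repair list (median -0.66) and the SRF target list (median -0.80) lie to the left.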

How the data were processed

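Expression was profiled on Affymetrix rat arrays, 3 sheared and 3 static, with groups and pairing numbers from the labels. Per the submitters' processing notes, the authors made the deposited intensity values with MAS5, of unstated version. The deposited intensity was linear, 1 value per probe set, with 3 to 10 exact zeros and a trimmed mean of 100.0 on every array, which had thus been scaled alike; detection calls were not used. The number of arrays limits the precision.

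Of 31099 probe sets 57 were controls. The platform annotation gave 20826 of the others 1 symbol, 436 several and 9780 none; 20758 matched RefSeq by gene identifier, and 0 symbols changed. The probe set with the highest mean stood for a gene.

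Signals were taken as log2(signal + 16). The 30% with the lowest mean were left out, at a limit of 4.50, leaving 21729. Shear minus static was fitted with lmFit and eBayes of limma 3.58.1 under R 4.3.3, with an intensity trend and a fixed effect for the pairing number. Two-sided p-values were adjusted over every tested probe set (Benjamini-Hochberg), and those under 0.05 were called. The fit was tested on simulated arrays. Figures used matplotlib 3.10.9 in Python 3.11.15.

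The pairing comes from the labels and the series design; deviations from group means correlated by 0.0712, 0.0648 and 0.0626 within pairs 1 to 3. Named genes were all probe sets of the 4 genes, tested paralogs, list genes with the smallest p (up to 4 a list) or needed to name small counts, the 3 most similar genes, and neighbours in the order of change; other list genes named were chosen after their values were seen. The genes and lists were chosen with earlier results of these data known. Promoter sequences are from RefSeq, build GRCr8. Alternatives were other blocks, scalings, filters, pseudocounts and variance settings, a threshold of 0.1, the mean over probe sets, and each pair left out.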

Additional observations from a re-analysis of the deposited data

How the results depend on the processing

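The 4 genes kept a positive difference under every setting tried. On the log2 scale, Riok3 on 1393236_at was 2.45 after quantile normalization, 2.72 after median centring, 2.48 with a pseudocount of 64 and 3.51 when its probe sets were averaged, against 2.57. Nabp1 was 4.29, 4.39 and 3.29 under the first 3 of these and 4.78 with a pseudocount of 1, against 4.24. Hopx was 3.05 with 64. Chst1 was 2.73 with 64 and 4.58 with 1. Leaving out a pair gave 2.55 to 2.61 for Riok3, 4.22 to 4.26 for Nabp1, 3.89 to 4.50 for Hopx and 3.73 to 3.95 for Chst1. The pseudocount sets these sizes for dim static signals by construction; the cause of the other shifts was not tested. Without the replicate block the differences of the 4 genes are the same by construction, 11430 probe sets changed against 11471 with it, and 27 partner genes rose and 48 fell against 30 and 50. Pairs left out gave 8441 to 13009 changed probe sets, in fits with 1 residual degree of freedom. Counts for single lists stayed within 1.5 times in 303 of 330 values. For single partner genes 1554 of 1674 values kept the call, and where called the direction, 85 lost the call and 34 gained it. Among genes called under either setting compared, the exception in direction was Pdlim7, 0.17 as a mean over probe sets and not past the threshold. No alternative was left out. Low signal limits the ratios of Nabp1, Hopx and Chst1.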
